A study of Heterocephalus glaber with 3 samples.

Results

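Keratins and genes of basal epithelium were followed through single-cell RNA profiles of lung tumours from naked mole-rats (Heterocephalus glaber). The set held 7 genes, KRT8 (written Krt8 in the feature list), EPCAM, KRT14, KRT23, SPINK5, SERPINE2 and GPRC5A, matched by symbol with case ignored among 23189 features, and all 7 were found. They were selected on measured values, with earlier results of these data in view. KRT8 and EPCAM had led an epithelial cluster there and SERPINE2, KRT14 and SPINK5 an unnamed cluster, while the values that put KRT23 and GPRC5A in the set are not recorded. Levels of the 7 genes across classes are therefore given as a description without a test.

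Tumours came from 3 animals, 1 library each, which form 1 group. A CRISPR adenovirus had been given to make edits, among them loss of Rb and an inversion that joins Eml4 to Alk, and all 3 animals carried the same labels. Lungs were taken 15 weeks after infection and tumours were dissected by hand. The labels name no uninfected animal, and give neither the age, the sex nor the cells that the virus enters, so every comparison below is between cells of the same tumours. The libraries held 76093932, 86575320 and 91949365 unique molecular identifiers (UMIs, each standing for 1 captured transcript) in replicates 1, 2 and 3. After filtering there were 7929, 8891 and 7779 cells.

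Epithelial cells build their cytoskeleton from paired keratins. KRT8 is the type II keratin of simple epithelium, which lines alveoli and airways, and KRT14 is the type I keratin of basal cells, where it pairs with KRT5. EPCAM is an adhesion molecule of most epithelia, and KRT23 is a type I keratin of glandular epithelium. SPINK5 encodes LEKTI, an inhibitor of the serine proteases that shed the outer skin. SERPINE2 encodes protease nexin-1, a secreted inhibitor of thrombin and plasminogen activators, and GPRC5A is a retinoic acid-induced receptor that is abundant in lung epithelium. These roles are known from human and mouse.

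Cells were grouped without use of the 7 genes. Epithelial-like cells numbered 195, 126 and 329 in replicates 1, 2 and 3 and comprised cluster 16, led by SFTPC and SCGB3A2, and cluster 24, with ciliated cell markers. Fibroblast-like cells numbered 1085, 878 and 1013 and comprised cluster 4, led by GKN2, MMP3 and IGF2, and cluster 9, led by CCL19, FIBIN and MFAP4. Cluster 19 stayed unnamed because its cells passed both the fibroblast and the basal epithelial marker lists, and 198 of its 202 cells came from replicate 2. Cluster 26, unnamed and led by DMP1 and IBSP, genes of bone matrix, likewise had 118 of 120 cells from replicate 2. Cluster 22, unnamed and leaning to mesothelium through MSLN, had 7, 34 and 119 cells. Levels are CPM, the UMIs of a gene per 1000000 UMIs summed over the cells of a group in an animal, and groups of under 20 cells in an animal were left out of means.

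KRT8 and EPCAM marked the epithelial-like cells. KRT8 had 762, 689 and 1159 CPM in epithelial-like cells of replicates 1, 2 and 3, against 26.6, 25.9 and 36.3 CPM in fibroblast-like cells. EPCAM had 881, 735 and 672 CPM in epithelial-like cells, against 28.7, 34.8 and 18.2 CPM in fibroblast-like cells. The groups were far apart in all 3 animals for both genes. T-like cells, which should lack both, gave 2.70, 2.47 and 6.73 CPM for KRT8 and 3.37, 2.37 and 3.59 CPM for EPCAM, which is taken as the background level. Epithelial-like cells held 70.1% of all KRT8 UMIs and 73.4% of all EPCAM UMIs.

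KRT8 was also present in a group with little EPCAM. Mesothelial-leaning cluster 22 had 390 and 249 CPM of KRT8 in replicates 2 and 3, and 1.98 and 2.68 CPM of EPCAM, a level like that of T-like cells. The 7 cells of replicate 1 had 6 UMIs or 41.4 CPM of EPCAM, with 1353 CPM of KRT8. Its CDH1 count, for the epithelial cadherin, was 0 in every animal. In the order of levels over classes and unnamed clusters, KRT8 was highest in epithelial-like cells, followed by cluster 22 and fibroblast-like cells, with no overlap between these neighbours over animals. EPCAM followed the order epithelial-like cells, cluster 19 with 40.6 CPM in replicate 2, and fibroblast-like cells.

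KRT14 did not follow KRT8. It had 2407, 284 and 2149 CPM in epithelial-like cells, against 359, 256 and 547 CPM in fibroblast-like cells. Replicate 2 was low among the epithelial-like values, and the groups overlapped over animals, although KRT14 was higher in epithelial-like cells within each animal. In cluster 19 KRT14 reached 3170 CPM in replicate 2 (95% Poisson interval 3124 to 3216). T-like cells gave 15.6, 41.0 and 17.1 CPM. Of all KRT14 UMIs, 24.3% lay in epithelial-like cells, 32.2% in fibroblast-like cells and 35.5% in cluster 19.

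SPINK5 spread over the same 3 groups. It had 432, 371 and 365 CPM in epithelial-like cells, against 79.0, 103 and 45.7 CPM in fibroblast-like cells, with no overlap. Cluster 19 had 770 CPM in replicate 2 (748 to 793). T-like cells stayed at 5.13, 4.18 and 3.59 CPM. Cluster 19 held 43.1% of all SPINK5 UMIs.

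SERPINE2 ran the other way and was the single member lower in epithelial-like cells. It had 133, 170 and 73.2 CPM there, against 661, 839 and 640 CPM in fibroblast-like cells, with no overlap. Cluster 19 had 7664 CPM (7593 to 7735) and held 54.6% of all SERPINE2 UMIs, and bone-matrix cluster 26 had 841 CPM, both in replicate 2. T-like cells gave 11.2, 66.3 and 6.96 CPM, so the background was highest in the animal that held clusters 19 and 26. The epithelial-like values of all 3 animals lay above their own T-like value.

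KRT23 was found in epithelial-like and in neutrophil-like cells. It had 64.4, 69.3 and 109 CPM in epithelial-like cells, against 0.530, 0.507 and 1.00 CPM in fibroblast-like cells. T-like cells gave 0.270, 0.0950 and 2.24 CPM, so the fibroblast-like values were at background. Neutrophil-like cells had 58.2, 44.1 and 57.3 CPM, all far above T-like cells. The epithelial-like level rested on few cells, since 6 of the 510 cells of cluster 16 held 48.7% of its KRT23 UMIs, and 1 cell held 66.7% in replicate 2. With each cell weighted equally the epithelial-like mean was 44.05 CPM instead of 80.9 CPM. After thinning to 2000 UMIs KRT23 was found in 5.56%, 3.67% and 6.38% of epithelial-like cells and in 8.72%, 5.68% and 12.2% of neutrophil-like cells, so no order is read between these classes.

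GPRC5A had 92.7, 329 and 92.9 CPM in epithelial-like cells, against 58.2, 23.4 and 60.7 CPM in fibroblast-like cells. The groups did not overlap, but replicate 2 was far higher than the others in epithelial-like cells. The ratio of mean levels was 1.83 on the log2(CPM + 1) scale over 3 animals and 0.63 without replicate 2. Cluster 22 had 79.2 and 82.5 CPM in replicates 2 and 3. Fibroblast-like cells held 56.1% of all GPRC5A UMIs and epithelial-like cells 22.6%.

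**Figure D1:**
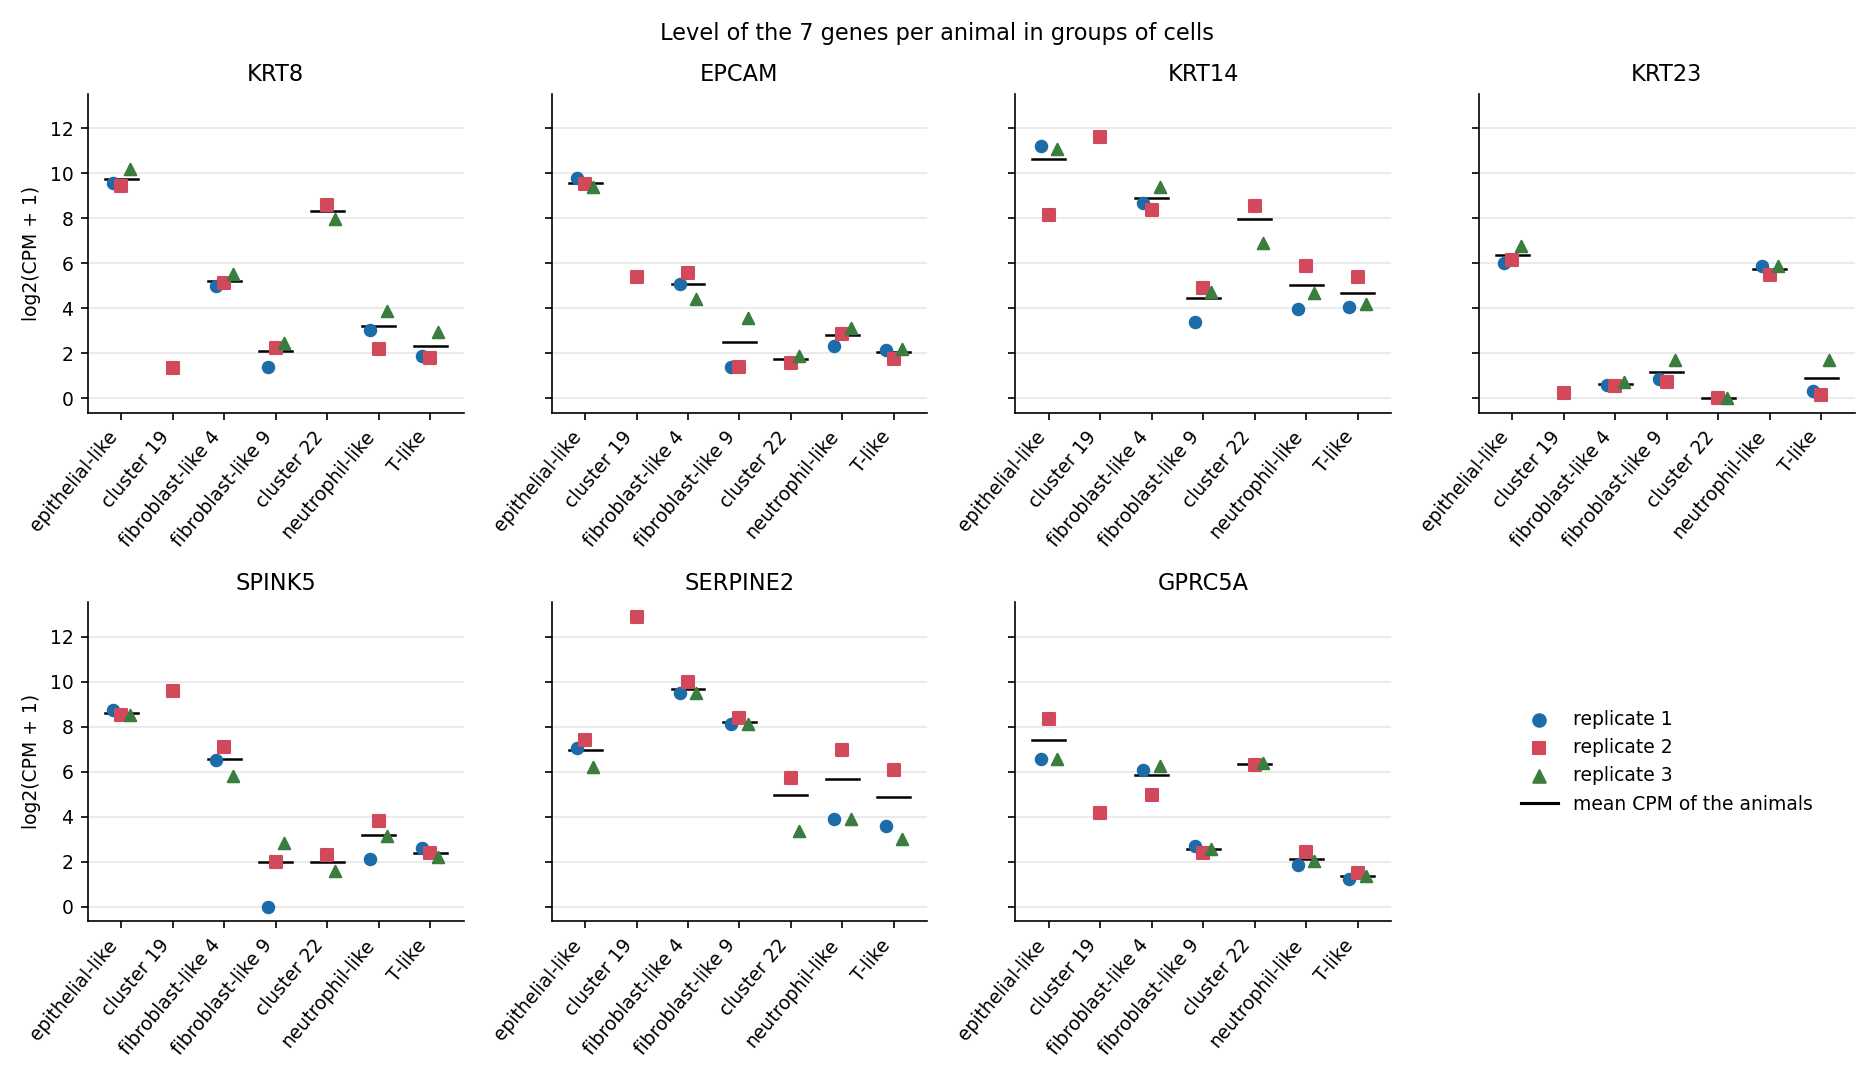
Level of each gene as log2(CPM + 1), with 1 point per animal and group of cells and a bar at the mean CPM of the animals; groups under 20 cells in an animal are not drawn, so cluster 19 shows replicate 2 and cluster 22 replicates 2 and 3. KRT8 and EPCAM are highest in epithelial-like cells, SERPINE2 is lower there than in both fibroblast-like clusters, and KRT14, SPINK5 and SERPINE2 are highest in cluster 19.

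The fibroblast-like signal came from cluster 4. KRT14 had 413, 333 and 681 CPM in cluster 4, against 9.61, 28.6 and 25.4 CPM in cluster 9, where it stood at the level of T-like cells. SPINK5 averaged 94.4 ± 40.4 CPM in cluster 4 and 3.02 ± 3.03 CPM in cluster 9 (SD, n = 3 each). GPRC5A averaged 57.0 ± 23.9 CPM in cluster 4 and 4.95 ± 0.641 CPM in cluster 9. SERPINE2 was shared more widely, with 821 ± 163 CPM in cluster 4 and 296 ± 37.0 CPM in cluster 9. KRT8 and EPCAM were 36.1 ± 7.38 and 33.0 ± 13.0 CPM in cluster 4, and 3.27 ± 1.51 and 4.75 ± 5.39 CPM in cluster 9.

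Few cells of cluster 4 carried most of the KRT14. Cells with at least 20 KRT14 UMIs numbered 58 of 725, 27 of 423 and 84 of 580 in replicates 1, 2 and 3, and held 87.1%, 75.9% and 87.8% of the KRT14 UMIs of cluster 4. No KRT14 was counted in 930 of the 1728 cells. The cells rich in KRT14 were the deeper ones, with a median of 25811 UMIs against 15121 UMIs in cells with 0. The 10% of cells of cluster 4 with the most GPRC5A held 53.3% of its UMIs, against 85.9% for KRT14 in its own top 10%.

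Cells of cluster 4 that were rich in KRT14 also held fibroblast genes. Summed over animals they had 2370.5 CPM of COL1A1, a fibrillar collagen gene, and 7280 CPM of VIM, the mesenchymal intermediate filament gene, against 3469 and 6387 CPM in cells with 0 KRT14 UMIs. KRT8 was 94.99 CPM in the rich cells and 18.7 CPM in cells with 0, and EPCAM was 60.0 and 12.8 CPM. KRT17, a stress-responsive basal keratin, was 205 CPM in the rich cells and 25.0 CPM in cells with 0. SERPINE2 went the other way, with 508 and 852 CPM. The median Scrublet score for doublets was 0.0600 in the rich cells and 0.0562 in cells with 0. In replicate 2 the 27 rich cells stood apart, with 239 CPM of EPCAM and 565 CPM of COL1A1, against 32.5 and 2566 CPM in replicate 1 and 26.5 and 2787 CPM in replicate 3.

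KRT8 and KRT14 also met in the same cells of cluster 4 at equal depth. Each cell was thinned to 2000 UMIs, which 20921 of 24599 cells reached. In cluster 4, KRT14 was found in 57.0% of the 93 cells with a KRT8 UMI and in 20.3% of the other cells. By animal these shares were 54.5% and 15.2% in replicate 1, 55.0% and 20.7% in replicate 2, and 58.8% and 26.5% in replicate 3 (KRT8 and KRT14). SPINK5 was found in 18.6% of the cells with KRT14 and 8.52% of those without. T-like cells thinned alike held KRT14 in 3.05%, 8.81% and 3.00% in replicates 1, 2 and 3.

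Within cluster 16 KRT14 was found beside other basal genes. Its 78 cells with at least 20 KRT14 UMIs had 233 CPM of KRT5, 1740 CPM of KRT17 and 30.3 CPM of TP63, the transcription factor of basal cells, against 0, 55.4 and 1.47 CPM in the 334 cells with 0. They had 43.5 CPM of SFTPC, surfactant protein C of alveolar type 2 cells, and 935 CPM of SCGB3A2, a secretoglobin of airway cells, against 95791 and 13416 CPM. These sums rest on 24, 3 and 51 rich cells of replicates 1, 2 and 3, and the animals differed. KRT5 was 504 CPM in the rich cells of replicate 1 and 99.1 CPM in those of replicate 3, and SCGB3A2 was 1916 and 481 CPM. KRT8 was higher in the KRT14-rich cells, at 1467 CPM against 639 CPM, and EPCAM was 984 CPM against 609 CPM. Mesenchymal genes were higher there too, with VIM at 1522 against 446 CPM, TAGLN at 971 against 45.2 CPM and COL1A1 at 151 against 19.1 CPM. ACTA2, another mesenchymal gene, was 14.3 against 16.5 CPM. The rich cells were the deeper ones, with a median of 15142.5 UMIs against 5745 UMIs, and the part of depth was not tested. After thinning to 2000 UMIs, KRT5 was found in 13.4% of the 127 cells of cluster 16 with KRT14 and in 0 of the 356 without. SERPINE2 was found in 29.1% of cells with KRT14 and 6.18% of those without, a direction seen in all 3 animals. SPINK5 was found in 15.0% of cells with KRT14 and 13.8% of those without. Its level was lower in the KRT14-rich cells, at 301 CPM against 461 CPM in cells with 0.

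KRT5, the usual partner of KRT14, was not detected in cluster 19 and was low in cluster 4. It had 0 UMIs in the 202 cells of cluster 19, which allows up to 0.492 CPM at 3 counts, and 75 UMIs or 2.11 CPM in cluster 4, against 0.0893 CPM in T-like cells. In cluster 4 KRT5 was 7.81 CPM in the KRT14-rich cells and 0.50 CPM in cells with 0 KRT14 UMIs. By animal the rich cells of cluster 4 had 2.00, 0 and 15.8 CPM of KRT5 in replicates 1, 2 and 3. The basal list held 9 markers, of which 7 were measured. In cluster 19 KRT17, SFN and ITGB4 were at 622, 131 and 39.8 CPM, TP63 and COL17A1 were at 1.15 and 0.492 CPM, and KRT5 and DSG3 were at 0. T-like cells had 11.4, 19.5 and 0.536 CPM of KRT17, SFN and ITGB4, and 0.893 and 0.0893 CPM of TP63 and COL17A1. In the KRT14-rich cells of cluster 16 all 7 were detected. The KRT14-rich cells of cluster 4 had 205, 200 and 15.6 CPM of KRT17, SFN and ITGB4. They had 4.73 and 4.11 CPM of DSG3 and COL17A1, against 0.0447 and 0.0893 CPM in T-like cells. COL17A1 was highest in those of replicate 3, at 8.84 CPM. TP63 was at 0.411 CPM in the rich cells of cluster 4, from 2 UMIs, below its T-like level. The name basal was thus borne out by markers in KRT14-rich cells of cluster 16, and not by KRT5, TP63 or DSG3 in cluster 19. In KRT14-rich cells of cluster 4 all but TP63 stood above T-like cells, at lower levels than in those of cluster 16.

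**Figure D2:**
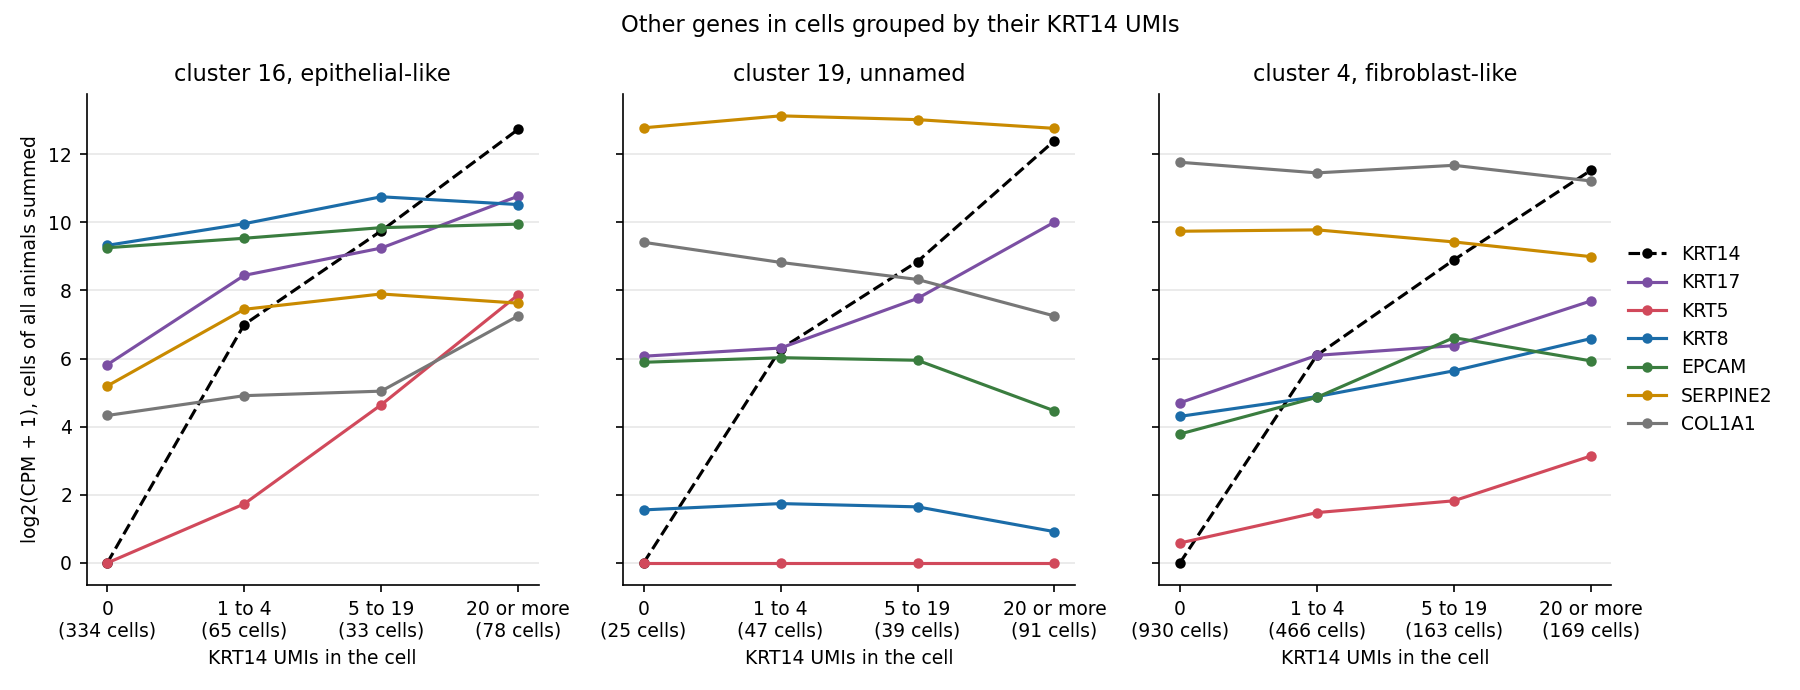
Levels as log2(CPM + 1), with cells of all animals summed, in cells ordered by their own KRT14 UMIs; the dashed KRT14 line is set by the ordering. KRT5 climbs with KRT14 in cluster 16, climbs to 7.81 CPM in cluster 4 and stays at 0 in cluster 19, while KRT17 is higher in KRT14-rich cells of all 3 clusters and SERPINE2 is lower in those of cluster 4.

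A finer clustering divided cluster 16 in another way. At Leiden resolution 2, cells led by SCGB3A2 (88, 19 and 166 in replicates 1, 2 and 3) came apart from cells led by SFTPC (48, 83 and 112). The KRT14-rich cells of cluster 16 were low in SCGB3A2, so the SCGB3A2-led cells held both such cells and cells high in SCGB3A2. KRT14 had 3547, 886 and 3248 CPM in SCGB3A2-led cells, against 247, 37.0 and 9.39 CPM in SFTPC-led cells. KRT23 had 88.9, 212 and 150 CPM in SCGB3A2-led cells, against 0, 0 and 1.34 CPM in SFTPC-led cells. SPINK5 had 632, 1222 and 519 CPM in SCGB3A2-led cells, against 56.3, 5.29 and 2.68 CPM in SFTPC-led cells. None of these 3 genes overlapped between the subsets. SPINK5 sat in few cells, since 34 of the 510 cells of cluster 16 held 86.6% of its UMIs there, and 4 of 101 held 95% in replicate 2.

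GPRC5A was the exception. It had 45.2, 114 and 79.4 CPM in SCGB3A2-led cells, against 282, 548 and 156 CPM in SFTPC-led cells, again with no overlap. KRT8 was 952, 1120 and 1492 CPM in SCGB3A2-led cells and 332, 447 and 298 CPM in SFTPC-led cells, and EPCAM overlapped between them. The SFTPC-led cells made up 83 of the 126 epithelial-like cells in replicate 2, 48 of 195 in replicate 1 and 112 of 329 in replicate 3. Replicate 2 was also the animal with the lowest KRT14 and the highest GPRC5A in epithelial-like cells as a whole. Ciliated-like cells of cluster 24 had KRT8 at 556 ± 112 CPM and EPCAM at 617 ± 156 CPM, with KRT14 at 16.9 ± 10.2 CPM and SPINK5 at 4.51 ± 5.34 CPM (SD, n = 3), the last 2 at the level of T-like cells.

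**Figure D3:**
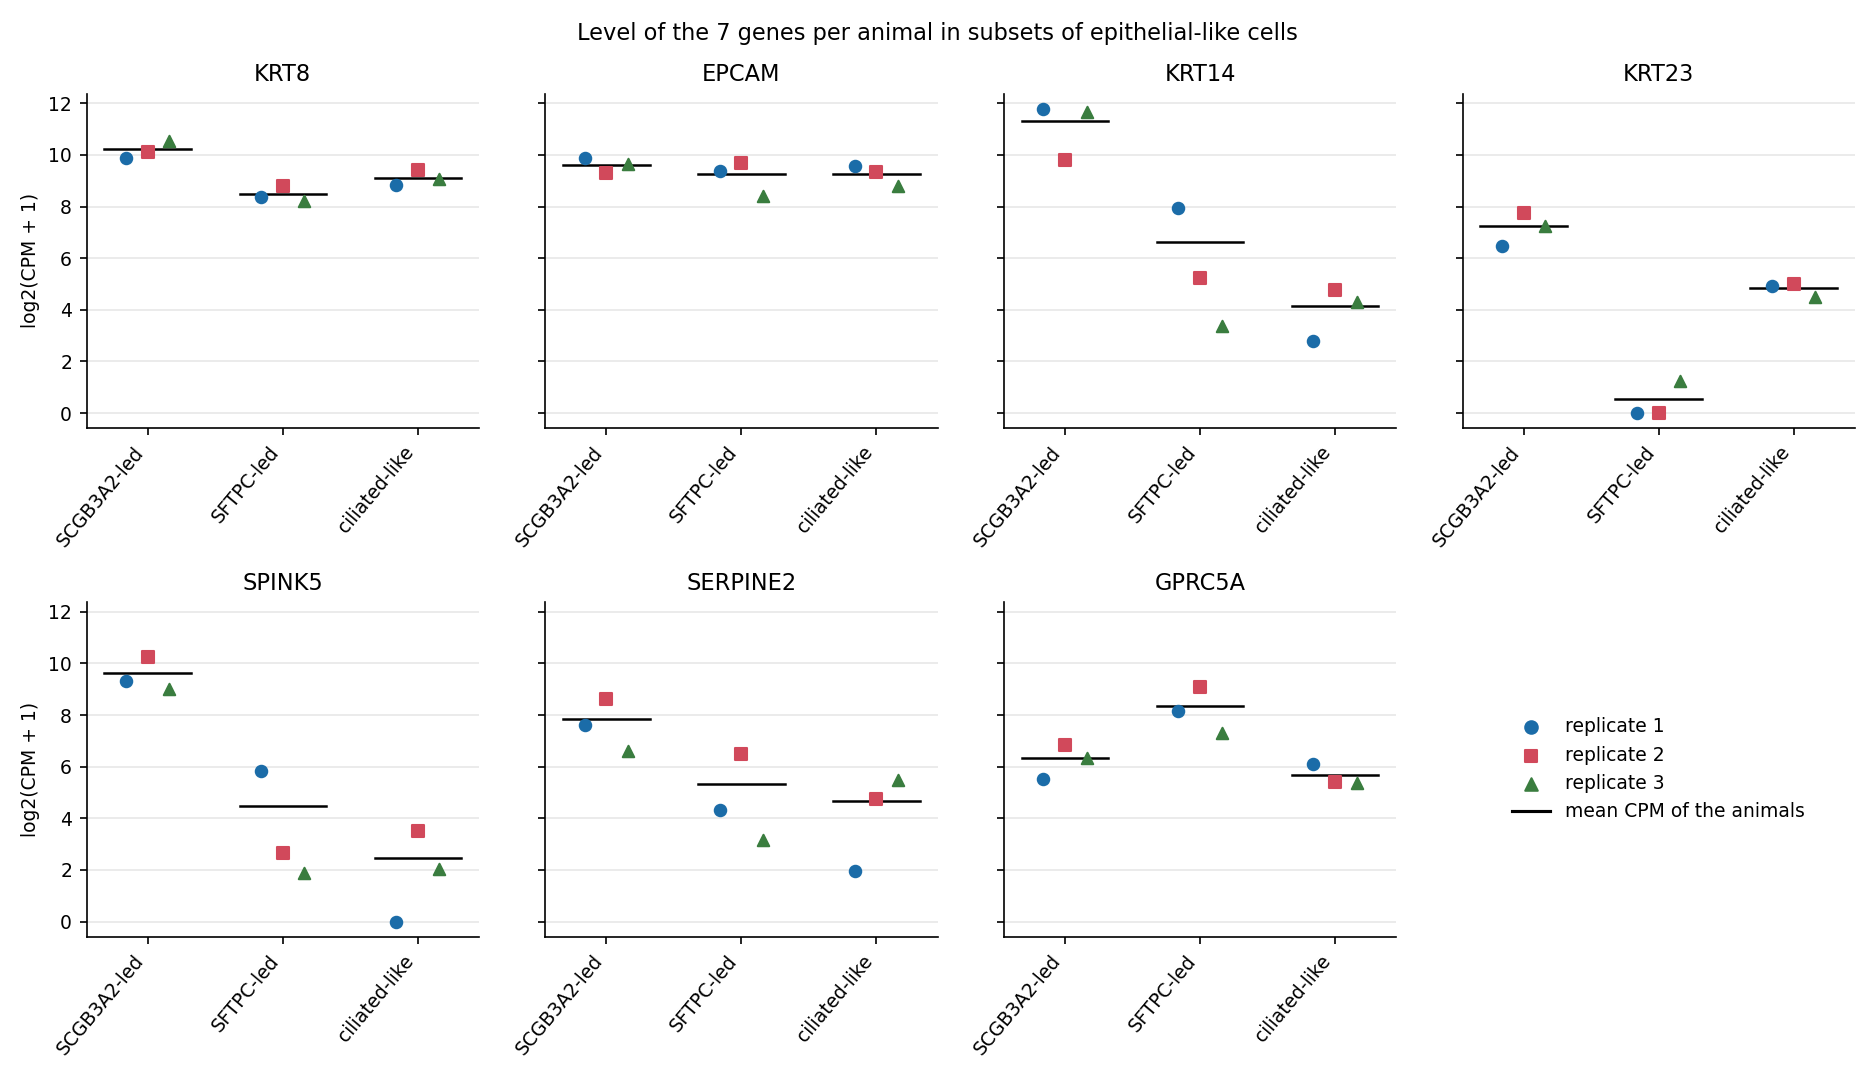
Level of each gene as log2(CPM + 1) in SCGB3A2-led, SFTPC-led and ciliated-like cells, with 1 point per animal and a bar at their mean CPM; the SCGB3A2-led point of replicate 2 rests on 19 cells. KRT14, KRT23, SPINK5 and SERPINE2 are highest in SCGB3A2-led cells and GPRC5A in SFTPC-led cells, while KRT8 and EPCAM are high in all 3 subsets.

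Levels were compared over 75 points, each a cluster in an animal with at least 20 cells, and correlations of log2(CPM + 1) across them are descriptions, since clusters of an animal share its library. KRT14 and SPINK5 were each other's closest gene among 9064 genes (r = 0.85), and KRT14 correlated with SERPINE2 at 0.71 and with KRT8 at 0.50. KRT8 was closest to S100A14 (r = 0.89) and EPCAM to MAL2 (r = 0.91) and FOXA2 (r = 0.90), a transcription factor of lung epithelium. SERPINE2 was closest to the collagen VI genes COL6A2 and COL6A1 (r = 0.82 and 0.81). KRT23 was closest to TCN1 and CCNJL (r = 0.80 each) and to LTF (r = 0.79), of which TCN1 and LTF encode granule proteins of neutrophils. GPRC5A was closest to NUPR1, a stress-response gene (r = 0.83). SERPINE2 and KRT8 were nearly unrelated, at 0.10.

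Lists of related genes placed the set within its pathways. An edgeR quasi-likelihood fit of summed counts, with animal as block, set epithelial-like against fibroblast-like cells. Benjamini-Hochberg adjusted p was under 0.05 for 34.9% of 13181 genes, 18.3% higher and 16.6% lower, with a median log2 fold change of -0.01. Both classes were drawn from these same counts, and 16 of the 61 list genes tested had also served to name clusters, so these counts describe the classes and carry no independent evidence. Of the 7 genes, 5 were called higher and SERPINE2 lower. The set was chosen on values of these same data, so nothing is read from these calls. The count of calls depends on the fit. KRT14 (edgeR adjusted p = 0.0200) was lost with DESeq2 (adjusted p = 0.0703), with no block (0.0572) and without replicate 1 (0.0528) or replicate 3 (0.0820), and GPRC5A (edgeR adjusted p = 0.0647) passed under 6 alternatives. Their log2 fold changes were 4.85 ± 0.14 for KRT8, 4.84 ± 0.19 for EPCAM, 6.86 ± 0.19 for KRT23, 2.43 ± 0.21 for SPINK5, 1.66 ± 0.43 for KRT14, 1.61 ± 0.58 for GPRC5A and -2.59 ± 0.19 for SERPINE2 (SE).

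Adhesion and junction genes rose in 12 of 14 tested, with a median log2 fold change of 4.44. CLDN7, a tight junction claudin, had 272 ± 56.7 CPM in epithelial-like cells and 2.65 ± 0.654 CPM in fibroblast-like cells, and CDH1 had 61.5 ± 8.63 and 0.169 ± 0.0624 CPM. All 7 basement membrane genes rose, among them ITGB4, the hemidesmosome integrin, by 3.93 ± 0.22 (log2 fold change, SE) and LAMA3, a laminin-332 chain, by 6.50 ± 0.23. All 7 epithelial transcription and splicing factors tested rose, including EHF at 3.78 ± 0.29 and TP63 at 5.51 ± 0.52. In both lists 1 gene was higher in 2 of 3 animals only, COL17A1 among basement membrane genes and TFAP2A among transcription factors, and replicate 2 was the exception for each. Of 4 basal and stratified keratins tested KRT4, KRT5 and KRT17 rose, and KRT10 had a fold change of 0.06 ± 0.27. The simple epithelial keratins of the list other than KRT8 had 0 of 5 members in the feature list and were not analysed here.

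Inhibitors and their targets divided. Among serine proteases of skin and their inhibitors, ST14 (matriptase), SPINT1, SPINT2 and PRSS8 rose, and KLK8, a kallikrein, fell by 0.93 ± 0.24 on the log2 scale. Among 6 serpins tested SERPINB5 rose by 4.52 ± 0.63, though in 2 of 3 animals, and 4 fell, including SERPINH1, a collagen chaperone, at -1.97 ± 0.19. The plasminogen activators PLAU and PLAT fell by 3.15 ± 0.25 and 3.06 ± 0.20, in the same direction as SERPINE2, which inhibits them. PLAUR, the receptor of PLAU, had -0.45 ± 0.32. Of 4 cornified envelope genes SBSN, SFN and KRTDAP rose. All 11 mesenchymal genes tested fell, including COL1A1 at -5.57 ± 0.25 and VIM at -2.86 ± 0.19. In the GPRC5 family GPRC5C had 0.824 ± 0.220 CPM in epithelial-like cells and 0.307 ± 0.223 CPM in fibroblast-like cells, and neither it nor GPRC5D passed the filter on low counts.

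**Figure D4:**
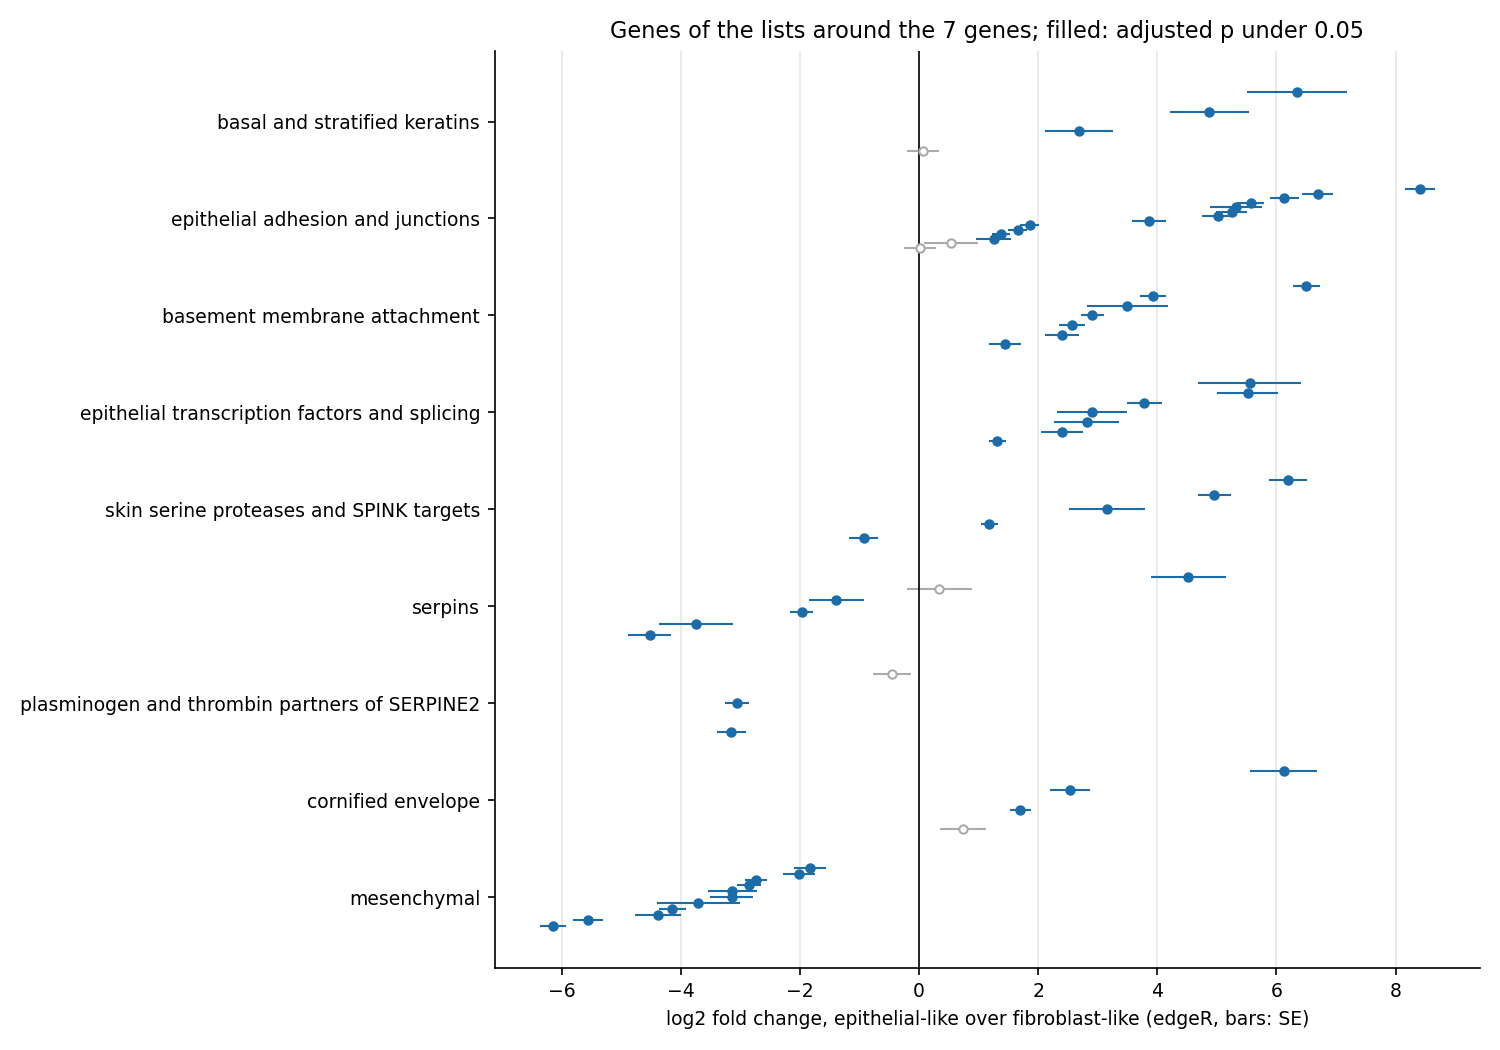
Log2 fold change of epithelial-like over fibroblast-like cells for each list gene tested, with SE bars; filled points have an adjusted p under 0.05 in edgeR. Junction, basement membrane and transcription factor genes lie right of 0, mesenchymal genes and plasminogen activators left of it, and serpins on both sides.

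ALK, the kinase gene moved by the inversion, was used to follow ALK-bearing cells. An ALK UMI shows a transcript of the gene, not the inversion itself. An ALK UMI was seen in 829 cells, of which 406 lay in cluster 4, 141 in cluster 19, 67 in cluster 26, 45 in cluster 16 and the others spread over 22 clusters. It was seen in 19.4%, 31.4% and 22.8% of cells of cluster 4 in replicates 1, 2 and 3, against a background of 0.370%, 1.05% and 0.176% of T-like cells, which are shallower. Among monocyte- or macrophage-like cells, with an ALK UMI in 41 of 4988, the share was 0.822%. A cell without an ALK UMI is not shown to lack ALK, since detection depends on depth. Cluster 4 was the sole cluster with at least 20 such cells in every animal (141, 133 and 132). These cells were set against as many cells of cluster 4 without an ALK UMI, matched on total UMIs within the animal. Median depths were 28661, 28549 and 24659.5 UMIs with an ALK UMI, and 28534, 25153 and 24254.5 UMIs in matched cells. The match was thus incomplete in replicate 2, and the part of this remaining difference was not tested. ALK was not among the genes used to cluster.

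GPRC5A fell in the ALK-bearing cells of cluster 4. It had 38.8, 15.7 and 60.8 CPM in cells with an ALK UMI of replicates 1, 2 and 3, against 78.5, 38.3 and 86.0 CPM in matched cells without. The groups overlapped over animals, and GPRC5A was lower in 3 of 3 animals. The log2 fold change was -0.97 ± 0.14 (SE; edgeR quasi-likelihood test with animal as block, adjusted p = 0.0206 over 10936 genes). Of the 6 members tested GPRC5A alone passed, where 0.338% of all genes did, 0.119% higher and 0.219% lower. The call was lost when the animal was left out of the model (edgeR adjusted p = 1.00), a fit in which 0 genes passed and 166 had an unadjusted p under 0.05, and the adjusted p under the other alternatives ranged from 9.42e-07 to 0.0468. GPRC5A was picked with earlier results of these cells known, so this test does not stand as independent evidence.

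KRT14 and SERPINE2 differed in every animal without passing the threshold. KRT14 had 284, 259 and 709 CPM in cells with an ALK UMI, against 636, 388 and 763 CPM in matched cells without, and was lower in 3 of 3 animals with overlapping groups (log2 fold change -0.70 ± 0.15, edgeR adjusted p = 0.0982). SERPINE2 had 1010, 1267 and 775 CPM in cells with an ALK UMI, against 444, 731 and 676 CPM in matched cells without, and was higher in 3 of 3 animals with no overlap (0.64 ± 0.14, edgeR adjusted p = 0.103). Against all cells of cluster 4 without an ALK UMI, KRT14 turned in replicate 3, with 709 CPM with an ALK UMI and 666 CPM without. Without replicate 3 both passed, with edgeR adjusted p of 0.00350 for KRT14 and 0.00262 for SERPINE2, and over the alternatives their adjusted p ranged from 9.72e-06 to 1.00 and from 1.20e-05 to 1.00.

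KRT8, EPCAM and SPINK5 did not pass the test between cells with and without an ALK UMI in cluster 4. KRT8 had 43.1, 20.7 and 23.5 CPM with an ALK UMI, against 33.1, 47.5 and 58.6 CPM in matched cells without (-0.73 ± 0.26, edgeR adjusted p = 0.331), and passed without replicate 1 (edgeR adjusted p = 3.78e-05; range over alternatives 3.78e-05 to 1.00). EPCAM had 47.9, 48.7 and 10.0 CPM with an ALK UMI, against 34.9, 44.0 and 29.2 CPM without (-0.17 ± 0.26, edgeR adjusted p = 0.846). SPINK5 had 62.2, 143 and 74.6 CPM with an ALK UMI, against 104, 144 and 48.7 CPM without (-0.16 ± 0.19, edgeR adjusted p = 0.789). The animals disagreed in direction for all 3 genes. KRT23 had at most 5 UMIs in a group and did not pass the filter on low counts.

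Among the related lists 5 genes passed this comparison, all lower. KRT17 fell by 1.29 ± 0.17 on the log2 scale in cells with an ALK UMI, as did LAMB3, a laminin-332 chain, by 0.67 ± 0.10, PLAU by 0.63 ± 0.09, PLAUR by 0.64 ± 0.11 and MMP3, a matrix metalloproteinase, by 0.48 ± 0.09 (edgeR, adjusted p of 0.0206, 0.0206, 0.0206, 0.0390 and 0.0493). Each was lower in 3 of 3 animals. KRT17 had 17.3, 44.0 and 56.2 CPM with an ALK UMI, against 28.1, 86.0 and 192 CPM without. These calls were 1 of 2 keratins, 1 of 5 basement membrane genes, 2 of 3 plasminogen partners and 1 of 11 mesenchymal genes tested, where 0.219% of all genes were called lower, and the adhesion, transcription factor, protease, serpin and cornified envelope lists had 0. All 5 were lost, with every other call, when the animal was left out of the model.

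**Figure D5:**
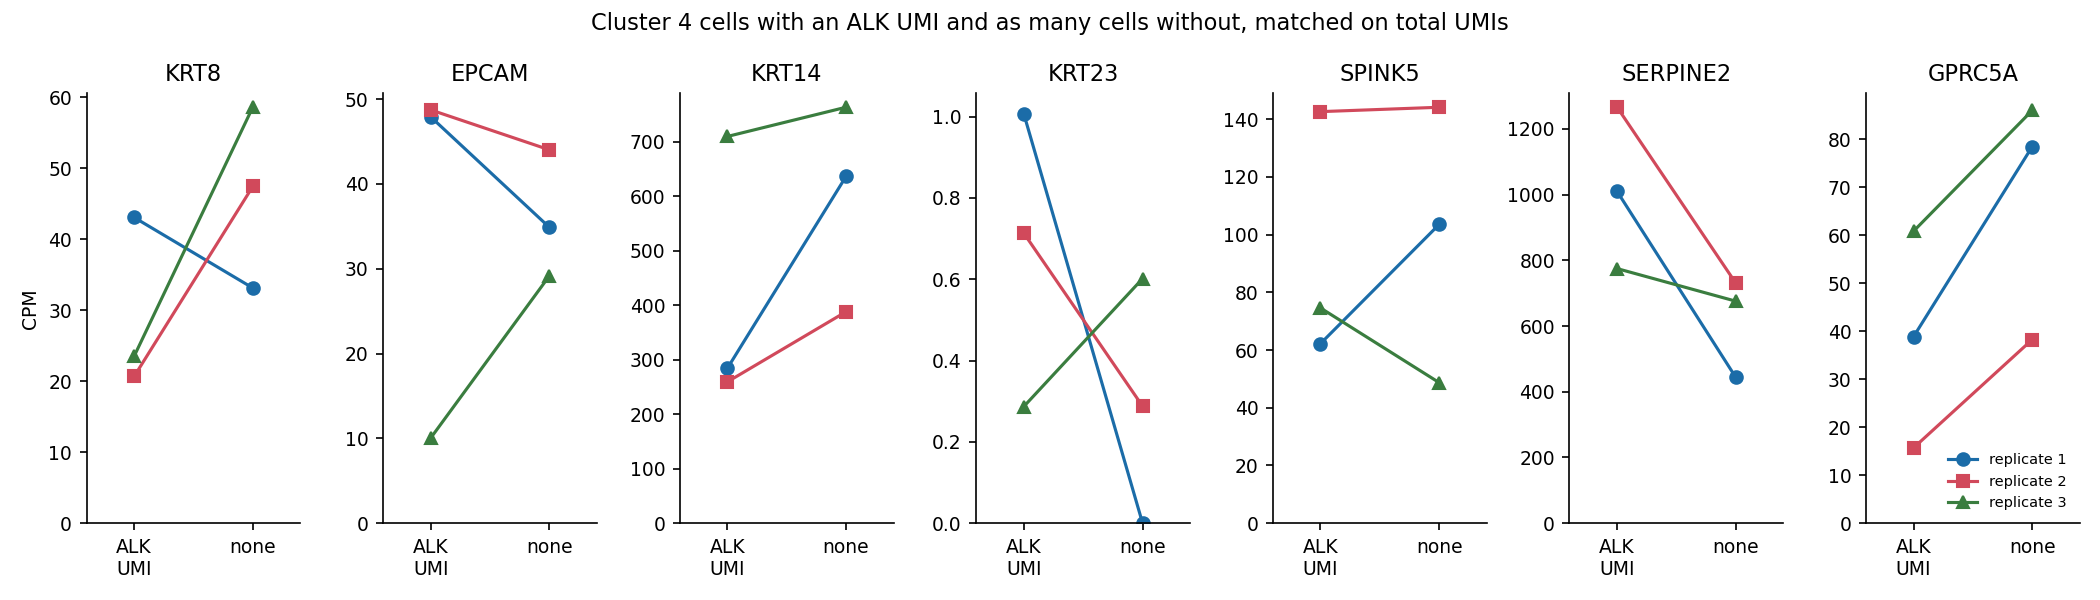
CPM of each gene in cells of cluster 4 with an ALK UMI and in as many cells without, matched on total UMIs, with 1 line per animal. GPRC5A and KRT14 are lower and SERPINE2 is higher with an ALK UMI in 3 of 3 animals, while KRT8, EPCAM and SPINK5 differ in direction between animals.

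Elsewhere the ALK-bearing cells allow values without a test. In cluster 19 of replicate 2, 139 cells had an ALK UMI and 59 had none, with median depths of 29915 and 24312 UMIs. KRT14 had 3437 CPM with an ALK UMI and 2260 CPM without, SERPINE2 7538 and 8090 CPM, SPINK5 764 and 794 CPM, and GPRC5A 13.9 and 27.7 CPM. KRT14 was thus higher with an ALK UMI, where in cluster 4 it was lower, and this difference between clusters was not tested. In cluster 16 of replicate 3, 33 cells had an ALK UMI and 242 had none, and their median depths were 15569 and 6641 UMIs. KRT8 had 1675 CPM with an ALK UMI and 1066 CPM without, KRT23 276 and 63.1 CPM, KRT14 2972 and 2153 CPM, and GPRC5A 87.2 and 102 CPM. The cells of cluster 16 without an ALK UMI included all 112 SFTPC-led cells of replicate 3. These had 298 CPM of KRT8, 1.34 CPM of KRT23, 9.39 CPM of KRT14 and 156 CPM of GPRC5A. SCGB3A2-led cells of that animal had 1492, 150, 3248 and 79.4 CPM. The part of depth in the unmatched values of both clusters was not tested, nor was the part of these subsets in cluster 16. At resolution 2 the ALK UMIs of cluster 16 lay in SCGB3A2-led cells, with 5.10, 33.9 and 17.3 CPM of ALK in replicates 1, 2 and 3, and SFTPC-led cells had 0 UMIs in all 3 animals. At 3 counts these zeros allow up to 8.04, 5.29 and 4.02 CPM, which in replicate 1 exceeds the SCGB3A2-led value.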

How the data were processed

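The authors deposited 1 matrix per animal with raw counts of UMIs by gene and barcode. Cell Ranger made them, in version 7.1.0 per the file headers and 8.0.0 per the submitters' processing notes. The genome build is not given in the sources used here. No sequence was used. A further edited gene named in the labels and a gene of the lists are not reported here.

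The 7 genes and the gene lists were chosen with earlier results of these data known. Cells were kept with at least 1000 UMIs, 500 genes and under 20% mitochondrial counts. Scrublet (scanpy 1.11.5) marked 1, 0 and 0 cells at its automatic threshold and had thus failed. Cells scoring 0.2 or more were removed instead (149, 124 and 172). Pairs of libraries had 24, 21 and 31 cell barcodes in common, and 0 of these agreed in UMI total. Clustering used 2000 variable genes without the 7 genes or the lists, 30 components, 20 neighbours and Leiden resolution 1 (leidenalg 0.10.2), without integration. A cluster was named where a list had 3 or more markers detected in 10% or more of cells, with a mean level 1 or more log2 units over the median of clusters, and stayed unnamed where another class scored at 50% of it or more. These thresholds were set after the data had been seen. The epithelial types were joined into 1 class.

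Summed counts were tested with edgeR 4.0.16 in R 4.3.3 (TMM, filterByExpr, quasi-likelihood, Benjamini-Hochberg). Animal was the block because both groups of cells come from each animal. DESeq2 1.42.0 was an alternative. Nothing in the labels goes beyond 1 library per animal. With animal as block, p-values concern how the difference within an animal varies, not the spread of levels between animals. edgeR estimates this variation for each gene partly from all other genes. The p-values therefore do not rest on the spread over the 3 animals alone. On simulated counts 44.9% of genes changed by 1 and 97.9% changed by 2 on the log2 scale were called in the ALK comparison, and 31.0% and 87.8% between classes. The simulated counts had the same dispersion for every gene and no difference between animals, and changed genes were drawn among those with more counts. These shares therefore need not hold for the real counts. Poisson intervals and floors of 3 counts cover counting error only. Genes named in the text follow a rule, namely the 7 genes, the nearest genes by correlation among those with at least 100 UMIs, and per list the 3 of highest epithelial level and the 3 of largest called fold. List genes called in the ALK comparison are named beyond it, after their values were seen.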

Additional observations from a re-analysis of the deposited data

How the results depend on the processing

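In each alternative run, 6 of the 7 genes had the higher mean in epithelial-like cells: minimum of 2000 UMIs, mitochondrial limit of 10%, no doublet removal, the genes kept in clustering, resolution 2, means over cells, thinning and leaving out each animal. Between classes 4598 genes were called, and 3047 to 4137 with an animal left out. In the ALK comparison 37 genes were called, 20 to 130 with an animal left out, 288 with no filter on low counts, 279 against all cells without an ALK UMI and 0 with no replicate block. Cells of an animal share its library, so the block rests on the design. The log2 fold change of EPCAM in the ALK comparison was -0.52 to 0.22 with an animal left out, turning positive without replicate 3, and 0.020 against all cells without an ALK UMI. That of SPINK5 was -0.44 to 0.18, turning positive without replicate 1. The cause of these reversals was not tested. Between classes, the log2 ratio for GPRC5A ran from 0.63 without replicate 2 to 3.03 with means over cells. KRT23 had too few UMIs in cluster 4 to be tested.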
